A study of Homo sapiens with 4 samples.

Results

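The PPM1 genes examined here encode serine/threonine phosphatases of the PP2C type. They were PPM1E, PPM1A, PPM1B, PPM1D, PPM1F, PPM1G, PPM1H and PPM1L, matched by gene identifier in the peak lists. All 8 genes had peaks, out of 17764 genes with a peak in any library. PPM1E was chosen by its measured share of peaks, which was high in eCLIP over input, so that difference describes the choice and is not a result. The other 7 genes were taken as members of its family.

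Enhanced crosslinking and immunoprecipitation (eCLIP) was used to map where a FLAG-tagged copy of ZFR, an RNA-binding zinc finger protein, contacts RNA. The 2 eCLIP libraries (replicates 1 and 2) and the 2 size-matched inputs (1 and 2), made without the immunoprecipitation, all came from Flp-In T-REx-293 cells, a human embryonic kidney line. In every library the cells carried FLAG-ZFR at the FRT site, were polyclonal, had 48 to 72 h of induction with doxycycline at 1 µg/mL and were crosslinked at 400 mJ/cm2. The tagged protein thus came from an induced transgene, and no library without it was analysed here. Separate cultures are not named for the 2 libraries of a group, so the spread behind any p-value may be purely technical.

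PPM phosphatases need magnesium or manganese ions and, unlike many other serine/threonine phosphatases, mostly act as single chains without regulatory subunits. PPM1E and PPM1F remove phosphate from calmodulin-dependent and p21-activated kinases, and PPM1E is known mainly from brain. PPM1D (WIP1) is induced by p53 and turns off the DNA damage response. PPM1G is a nuclear member that associates with the spliceosome. A peak in these genes marks RNA recovered from their transcripts, pre-mRNA included, and says nothing about the phosphatase itself.

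The peak lists differed greatly in length, with 479308 and 41904 peaks in eCLIP replicates 1 and 2 against 63068 and 11204 in inputs 1 and 2. Levels are therefore given as shares, in peaks per 10000 peaks of the library. Peaks of the eCLIP libraries held 3075352 and 229647 reads, against 249245 and 102084 for inputs 1 and 2; the sequencing depth itself is unknown. The PPM1 genes together held 799 and 76 peaks in eCLIP replicates 1 and 2, against 75 and 7 in inputs 1 and 2. Intervals below are 95% intervals, exact Poisson for peak numbers and densities and Wilson for percentages, and they cover counting error only. Cell identity could not be checked against markers, because the files pair no gene names with identifiers.

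The 8 genes lay on 6 chromosomes, and each gene's peaks kept to 1 chromosome and 1 strand. A span is the stretch between the outermost peaks of a gene over the 4 libraries, in hg19 coordinates. PPM1E (ENSG00000175175.4) spanned 201 kb of chromosome 17 (plus strand), from 56833923 to 57034974. PPM1D (ENSG00000170836.7) lay on the same chromosome and strand, from 58677670 to 58741756. PPM1A (ENSG00000100614.13) lay on chromosome 14, plus strand, from 60716070 to 60765656. PPM1B (ENSG00000138032.16) and PPM1G (ENSG00000115241.9) were both on chromosome 2, PPM1B on the plus strand from 44398346 to 44465092 and PPM1G on the minus strand from 27604125 to 27632325. PPM1F (ENSG00000100034.9) lay on chromosome 22, minus strand, from 22273949 to 22307122. The longest spans were those of PPM1L (ENSG00000163590.9), on chromosome 3, plus strand, from 160473709 to 160792478, and PPM1H (ENSG00000111110.7), on chromosome 12, minus strand, from 63038062 to 63327823. In 6 of the 8 genes, PPM1E among them, no peak of another gene lay within the span on either strand; PPM1F held 2 peaks of another gene on the opposite strand, and PPM1H 3 of another gene on its own strand. Exons, introns and the sequence under the peaks were not analysed here, since no hg19 annotation or genome was used.

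PPM1E held 326 and 45 peaks in eCLIP replicates 1 and 2, against 23 peaks for input 1 and none, 0, for input 2. As shares these were 6.80 (6.08 to 7.58) and 10.7 (7.83 to 14.4) per 10000 peaks in eCLIP, against 3.65 (2.31 to 5.47) and 0 in the inputs. The groups did not overlap, with the eCLIP libraries higher, which is what picked the gene. With 0 peaks in input 2, a floor of 3 peaks in that library is 2.68 per 10000. The share in eCLIP replicate 2 was 4.01 times that floor, while for number 1 the ratio was 1.87. The upper Poisson limit of input 2 is 3.29 per 10000, so 4.01 is no lower bound. The log2 difference of eCLIP minus input, on log2(share + 0.5), was 2.65 (SE 0.93), and no test is given for it. It rests largely on input 2: without that library the difference was 1.13, and without input 1 it was 4.18.

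Among the other 7 genes, none differed between eCLIP and input beyond the spread between libraries. limma, fitted over 8914 genes with at least 10 peaks in all, called 0% of genes higher and 0% lower after Benjamini-Hochberg adjustment, and each of the 7 had an adjusted p between 0.995 and 0.999. At an unadjusted p under 0.05 it had 1.26% of genes higher and 0.696% lower, and 0 of the 7. Their log2 differences had a median of 0.05, against 0.16 over all genes tested. With 2 libraries against 2, an exact permutation test cannot give a two-sided p below 0.33.

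**Figure D1:**
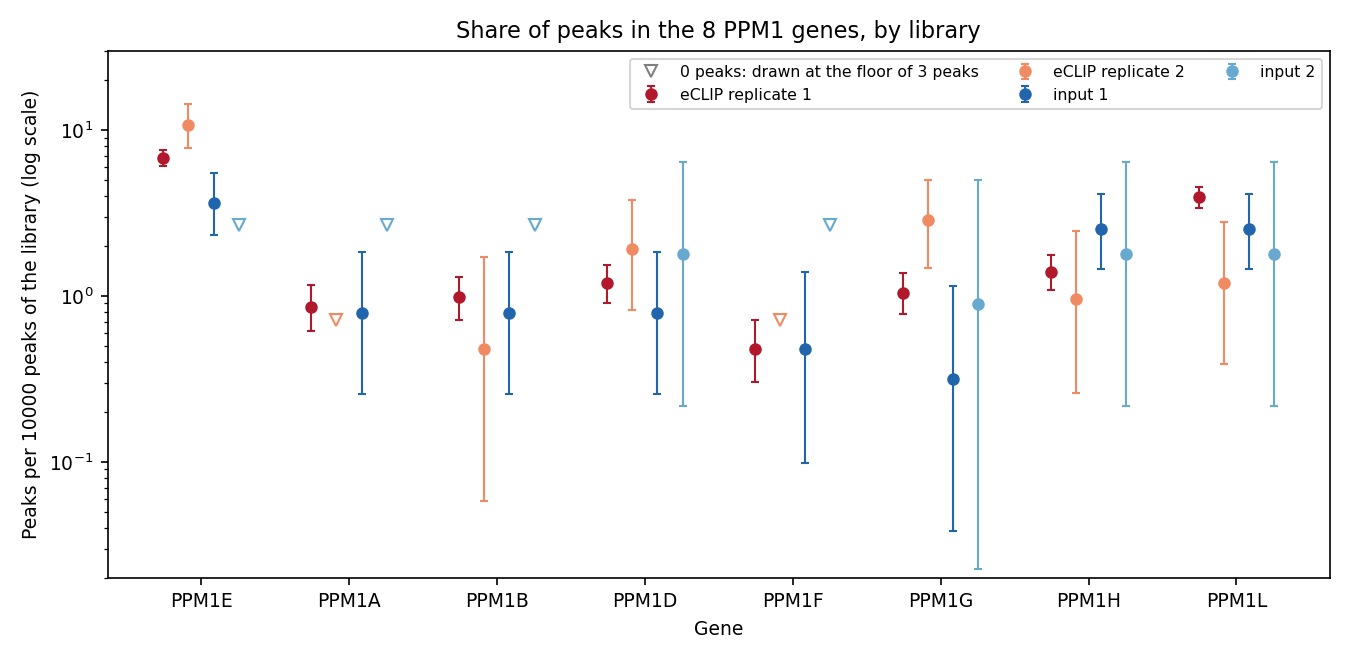
Peaks per 10000 peaks of the library (log axis) for each PPM1 gene in the 2 eCLIP libraries and the 2 inputs; bars are 95% Poisson intervals and open triangles mark 0 peaks, drawn at the share that 3 peaks would give. PPM1E lies at 6.80 and 10.7 in eCLIP against 3.65 and 0 in input, while no other gene is above 3.92 in any library.

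PPM1G and PPM1H were the 2 genes besides PPM1E whose eCLIP and input shares did not overlap, and they went opposite ways. PPM1G, the spliceosome-associated phosphatase, held 50 and 12 peaks in eCLIP, against 2 and 1 in input. Per 10000 peaks this was 1.04 and 2.86 in eCLIP and 0.317 and 0.893 in input. The eCLIP share was 3.29 times the input share for number 1 and 3.21 times for number 2, but on 2 and 1 input peaks, and the intervals of the inputs (0.0384 to 1.15 and 0.0226 to 4.97) reached into those of eCLIP (0.774 to 1.38 and 1.48 to 5.00). The 2 peaks of input 1 touched each other. Its log2 difference was 1.09 (SE 0.80, limma adjusted p = 0.995). By reads in peaks, PPM1G took 0.849 and 2.92 per 10000 reads in eCLIP, against 0.241 and 0.294 in input.

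PPM1H, a phosphatase that acts on Rab GTPases phosphorylated by LRRK2, held 67 and 4 peaks in eCLIP, against 16 and 2 in input. Its shares were 1.40 and 0.955 per 10000 in eCLIP, against 2.54 and 1.79 in input, a ratio of 0.551 for number 1 and 0.535 for number 2. The log2 difference was -0.66 (SE 0.77, limma adjusted p = 0.995). In input 1 many of its intervals touched the next one, and merging them left 9 of 16; the shares then were 1.39 and 0.971 against 1.94 and 1.83 per 10000 regions, still apart. One site of PPM1H overlapped peaks listed under another gene, ENSG00000200296.1. Its peaks in PPM1H held 24 and 0 reads in eCLIP replicates 1 and 2, against 16 and 11 in inputs 1 and 2. Without that site (a setting added once the values were known) the shares were 1.36 and 0.955 in eCLIP, against 2.22 and 0.893 in input, and the groups overlapped.

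Of all genes tested, 21.1% had the eCLIP pair above the input pair without overlap and 10.2% had it below. Of the 7 genes other than PPM1E, 1 lay above and 1 below, which is near those percentages. By reads in peaks the percentages were 25% above and 9.08% below, and PPM1D joined PPM1G above, with 0.868 and 1.26 per 10000 reads in eCLIP, against 0.602 and 0.588 in input. By peaks PPM1D overlapped, with 1.19 and 1.91 per 10000 in eCLIP (57 and 8 peaks) against 0.793 and 1.79 in the inputs (5 and 2 peaks). Its log2 difference was 0.23 (SE 0.78, limma adjusted p = 0.995).

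The remaining 4 genes showed no separation by peaks or reads. PPM1L, which is anchored in the endoplasmic reticulum membrane, had the second most peaks in eCLIP replicate 1. It held 188 and 5 peaks in eCLIP, against 16 and 2 in input. Per 10000 peaks this was 3.92 and 1.19 in eCLIP and 2.54 and 1.79 in input. The eCLIP share was thus above the input for number 1 and below it for number 2. PPM1A, which dephosphorylates SMAD proteins and stress kinases, held 41 and 0 peaks in eCLIP against 5 and 0. PPM1B, which acts on the kinases TAK1 and IKK-beta, held 47 and 2 against 5 and 0. PPM1F, the closest relative of PPM1E in substrates, held 23 and 0 against 3 and 0, so the library numbered 2 listed nothing on either side. Fisher's exact test between same-numbered libraries, added after the data were seen, called 1.87% of all genes higher in eCLIP and 4.68% lower between the libraries numbered 1. Between those numbered 2 it called 0.0449% higher and 0.0673% lower. It compares those 2 libraries, not the conditions, and called 0 of the 7 genes either time; the lowest adjusted p was that of PPM1H for number 1, at 0.23.

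**Figure D2:**
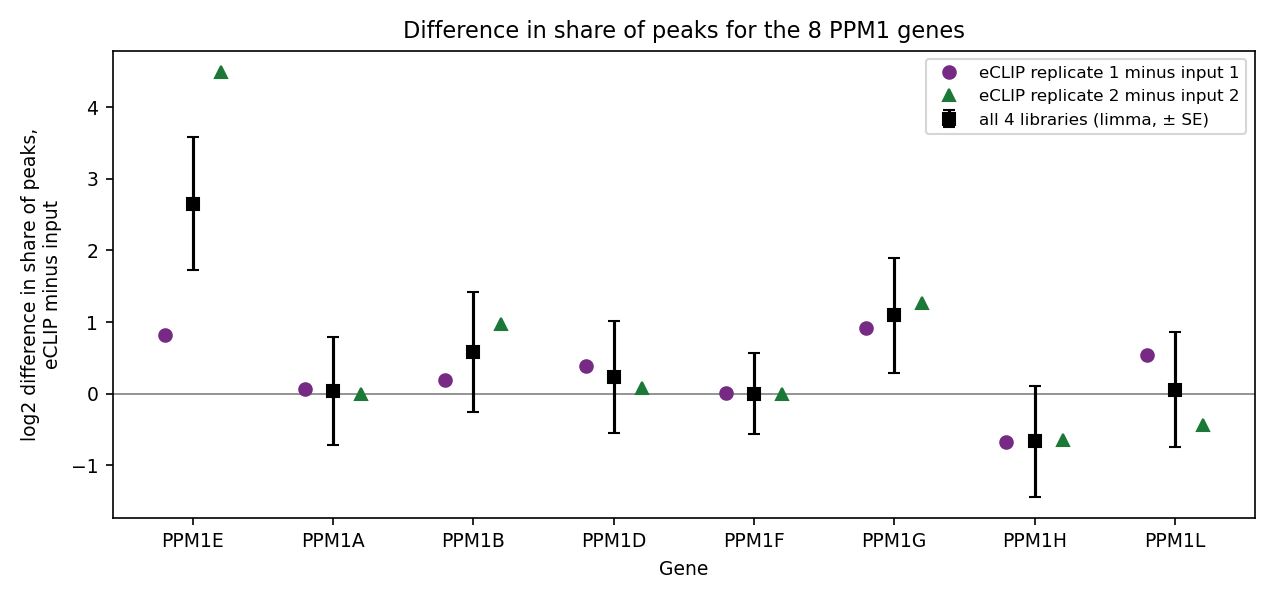
Difference in log2(peaks per 10000 + 0.5), eCLIP minus input, for each gene from all 4 libraries (squares, limma, bars ± SE) and for each same-numbered pair of libraries (circles and triangles). PPM1E stands at 2.65 with pair values of 0.82 and 4.49, PPM1G is above 0 and PPM1H below 0 in both pairs, and PPM1L changes sign between pairs.

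Per length, PPM1G and PPM1E carried the densest peaks of the family in both eCLIP libraries. PPM1E was picked for its eCLIP share of peaks, so its place in this order is no separate finding. In eCLIP replicate 1, PPM1G had 17.7 (13.2 to 23.4) and PPM1E 16.2 (14.5 to 18.1) peaks per 10 kb of span, and these neighbours in the order did not differ beyond counting error, while both lay above the interval of the next gene. PPM1D followed with 8.89 (6.74 to 11.5), then PPM1A with 8.27, PPM1B with 7.04, PPM1F with 6.93 and PPM1L with 5.90, each overlapping the next in interval. PPM1H was lowest at 2.31 (1.79 to 2.94), below the interval of PPM1L (5.08 to 6.80). The median over 7975 genes with spans of at least 10 kb was 7.80. Over 2144 genes with spans of at least 100 kb it was 4.52, with quartiles of 2.05 and 7.92. Against these long genes PPM1L lay above the median, and PPM1H lay between the lower quartile and the median.

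The first 3 places were the same in eCLIP replicate 2. PPM1G had 4.26 (2.20 to 7.43), PPM1E 2.24 (1.63 to 2.99) and PPM1D 1.25 (0.539 to 2.46) peaks per 10 kb, and the other 5 genes had between 0 and 0.300. In input 1 the order was different and narrow: PPM1E was first at 1.14 (0.725 to 1.72), PPM1G was sixth at 0.709 (0.0859 to 2.56), PPM1L was last at 0.502 (0.287 to 0.815), and all intervals overlapped. In input 2 the highest value was 0.355, for PPM1G on 1 peak. Among 2144 genes with spans of at least 100 kb, PPM1E, picked for its many eCLIP peaks, lay above the 95th percentile in eCLIP replicates 1 (13.3) and 2 (1.49) and, in input 1, between the upper quartile (0.827) and the 95th percentile (1.61), which restates that choice and is no separate finding. Spans were taken from the peaks themselves, so a gene with few peaks can have a short span.

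**Figure D3:**
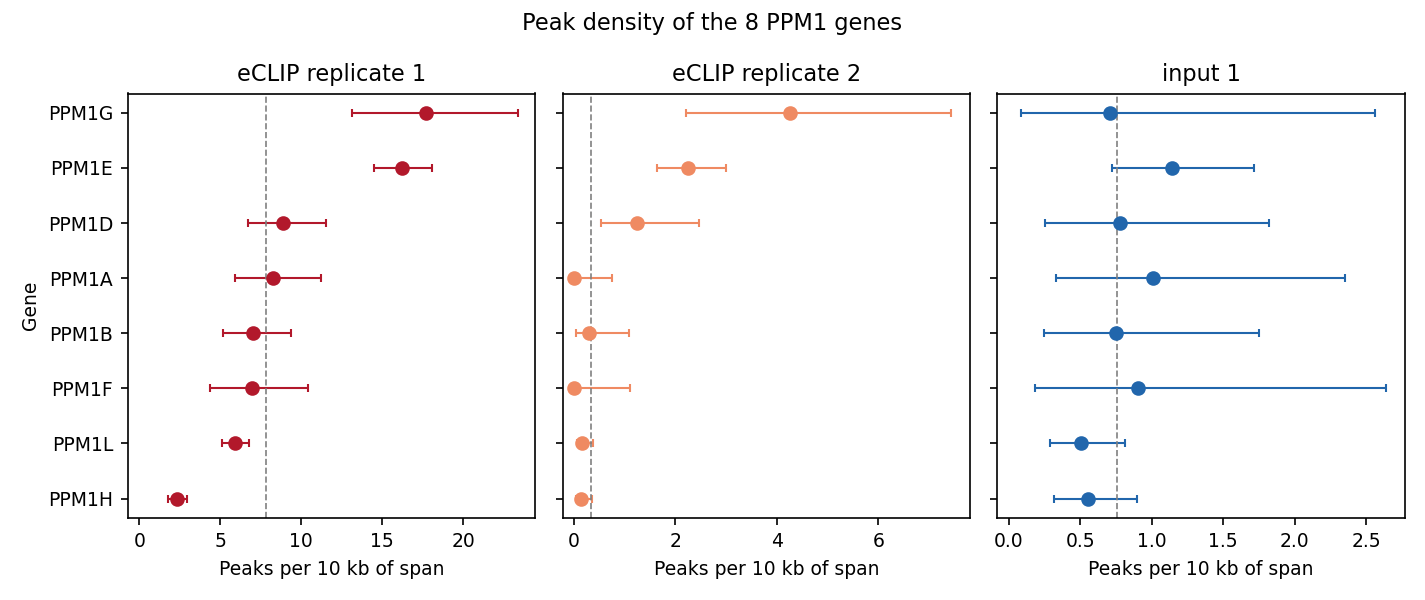
Peaks per 10 kb of span for the 8 genes in eCLIP replicate 1, eCLIP replicate 2 and input 1, each on its own linear axis, in the order of eCLIP replicate 1; bars are 95% Poisson intervals and the dashed line is the median of genes spanning at least 10 kb. PPM1G and PPM1E, the latter picked for its eCLIP share, lead in both eCLIP libraries, at 17.7 and 16.2 and at 4.26 and 2.24. In input 1 the genes lie between 0.502 and 1.14. Genes spanning at least 100 kb have a lower median, 4.52 in eCLIP replicate 1.

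PPM1E held many peaks, and in eCLIP replicate 1 a smaller share of those listed was at the minimum of 3 reads than in the whole library. The share of its eCLIP peaks with low p-values was near that of the libraries. The tallest PPM1E peak held 22 and 13 reads in the eCLIP libraries, against 5 in input 1. These are raw maxima over 326 and 45 eCLIP peaks against 23 in input 1. They are not scaled to the libraries, whose peaks held 3075352 and 229647 reads in eCLIP against 249245 in input 1. The mean was 5.58 and 4.53 reads per peak in eCLIP, below the 6.42 and 5.48 of those libraries as a whole, and 3.43 in input 1 against 3.95 for that library. The medians went the other way in eCLIP, at 5 and 4 reads in PPM1E against 4 and 3 over all peaks. Peaks at the minimum of 3 reads made up 14.1% (10.7 to 18.3) of PPM1E in eCLIP replicate 1, where all genes had 32.0%. In eCLIP replicate 2 that was 44.4% (30.9 to 58.8) against 50.1%, and in input 1 it was 69.6% (49.1 to 84.4) against 62.3%. The lists stop at an authors' p-value of 0.05, and that limit fell differently by gene. In eCLIP replicate 1 a PPM1E peak of 3 reads and 14 bases had 0.0491, while a PPM1H peak of 3 reads and 33 bases had 0.0362. Shares at 3 reads and medians thus describe listed peaks only, and the effect of the limit on them was not tested. The authors' p-value was at most 0.001 for 22.1% (17.9 to 26.9) and 20% (10.9 to 33.8) of its eCLIP peaks, against 23.3% and 21.9% for all genes. The median PPM1E peak was 29 and 31 bases wide in eCLIP and 37 in input 1. No PPM1E peak of either eCLIP library touched another. The highest peak number listed for the gene implies at least 411 and 56 numbered peaks in the eCLIP libraries, of which 79.3% and 80.4% were listed, and 23 in input 1, all of them listed.

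The relatives differed from PPM1E and from each other in peak size. PPM1F had the largest peaks, with a mean of 8.04 reads in eCLIP replicate 1, only 1 of 23 at 3 reads, and 52.2% (33.0 to 70.8) at a p-value of at most 0.001. PPM1H and PPM1L had the smallest, with means of 3.96 and 3.95 reads and with 61.2% (49.2 to 72.0) and 52.1% (45.0 to 59.2) of peaks at 3 reads. PPM1H also held the lowest p-value of the family, 2.01e-16, for a peak of 19 reads at 63244616 to 63244683. That peak is the site shared with the other gene, and both inputs had a peak there, with 6 reads in input 1 and 11 in input 2.

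Along PPM1E the peaks were denser toward the 5′ end in all 3 libraries that had any. The first 50% of the span held 73.9% (68.9 to 78.4) of the peaks of eCLIP replicate 1 and 84.4% (71.2 to 92.3) of eCLIP replicate 2, against 73.9% (53.5 to 87.5) of input 1, so eCLIP and input did not differ beyond counting error. The first 10% of the span held 18.1% (14.3 to 22.6) and 20% (10.9 to 33.8) in eCLIP against 34.8% (18.8 to 55.1) in input 1, and the last 10% of the span held 1.23% and 0% in eCLIP against 0%. The slope was steeper than in most long genes. Among genes with spans of at least 100 kb and 20 peaks in the library, the share in the first 50% of the span had a median of 61.3% and an upper quartile of 73.9% in eCLIP replicate 1 (1845 genes). In eCLIP replicate 2 these were 70.0% and 84.3% (176 genes), and in input 1 they were 57.5% and 69.0% (410 genes).

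**Figure D4:**
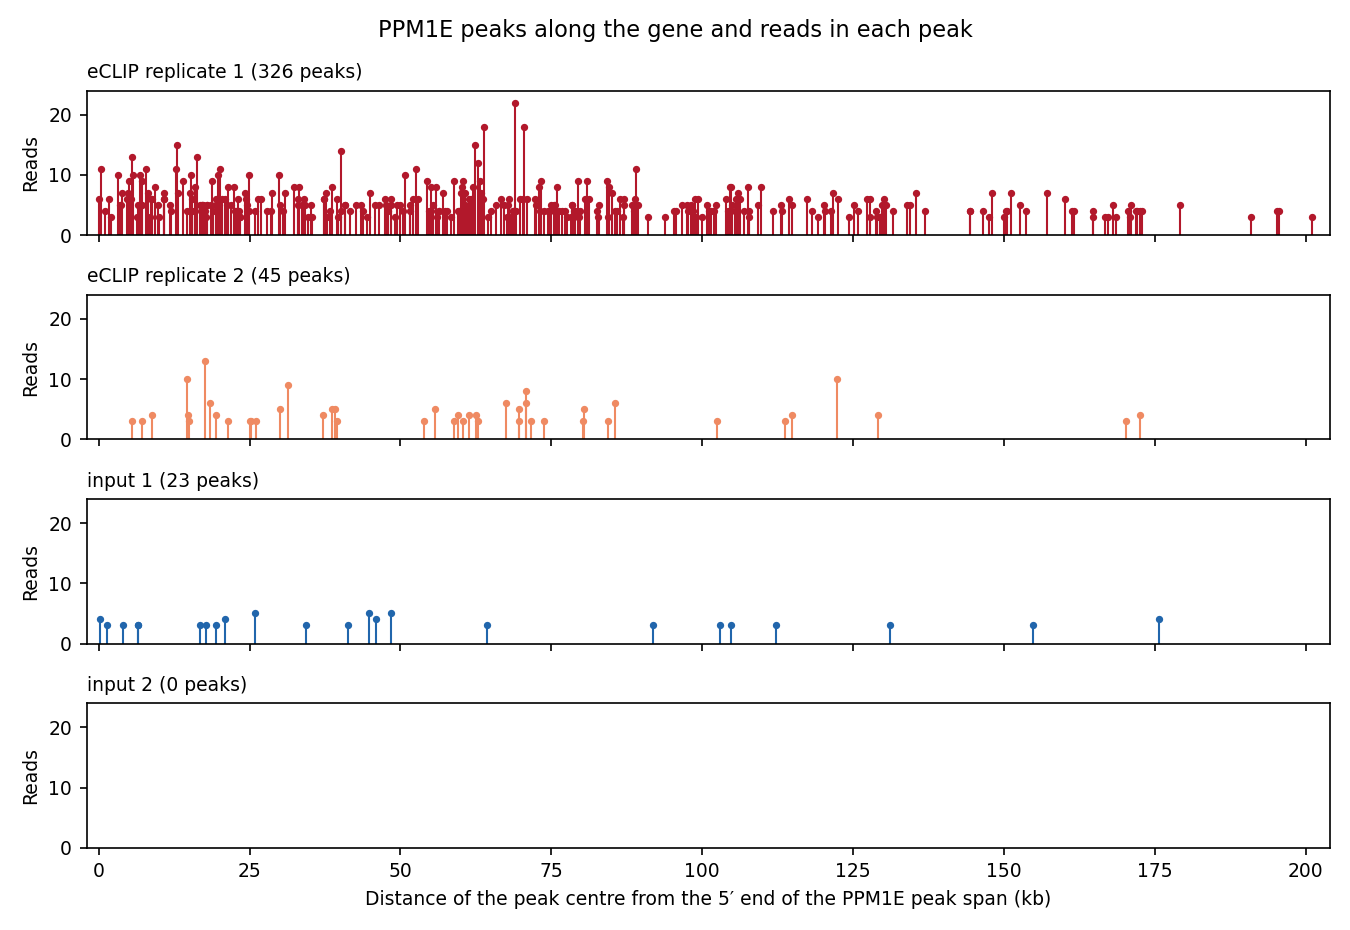
Each line is a PPM1E peak at the distance of its centre from the 5′ end of the span (kb), with its height in reads, for eCLIP replicates 1 and 2 and inputs 1 and 2. The 326 peaks of eCLIP replicate 1 crowd the 5′ side, 4 of its 6 tallest lie between 62.3 and 70.4 kb and the others at 13.0 and 40.1 kb, and input 2 has no peak.

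Of the 6 tallest PPM1E peaks of eCLIP replicate 1, 4 stood close together and 2 stood apart. The peak of 22 reads lay at 56902938 to 56902991, which is 69.0 kb from the 5′ end. Near it lay those at 56904314 to 56904375 (18 reads), 56897653 to 56897727 (18 reads) and 56896202 to 56896243 (15 reads), at 70.4, 63.8 and 62.3 kb. A peak that also had 15 reads lay at 56846860 to 56846913, 13.0 kb from the 5′ end, and one of 14 reads at 56874021 to 56874076, at 40.1 kb. The stretch from 60 to 90 kb, chosen after these positions were seen and therefore given with no test, makes up 14.9% of the span. It held 78 of 326 peaks (23.9%, 19.6 to 28.8) of eCLIP replicate 1 and 15 of 45 (33.3%, 21.4 to 47.9) of eCLIP replicate 2, against 1 of 23 (4.35%, 0.772 to 21.0) of input 1. Of reads in PPM1E peaks it held 26.3% and 31.9% in eCLIP against 3.80% in input 1. At the other end, the longest stretch of PPM1E without a peak in eCLIP replicate 1 began 179 kb from the 5′ end and was 11825 bases long.

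The slope of PPM1E was shared by PPM1L and PPM1D but not by every relative. In eCLIP replicate 1 the first 50% of the span held 156 of 188 PPM1L peaks (77.0% to 87.7%), 80.7% (68.7 to 88.9) of PPM1D and 62.7% (50.7 to 73.3) of PPM1H. PPM1L also had 16 of its 188 peaks in the last 10% of its span, where its 2 tallest stood with 9 reads each. PPM1G was nearly even, at 56.0% (42.3 to 68.8), and PPM1A at 46.3% (32.1 to 61.3) with 12 of 41 peaks in the last 10% of its span. PPM1B and PPM1F leaned to the 3′ side, with 17.0% (8.89 to 30.1) and 8.70% (2.42 to 26.8) in the first 50% of the span. Both lay below the 10th percentile, 30.4%, of 3857 genes with spans of 10 to 100 kb, whose median was 53.8%. In PPM1F the 3 tallest peaks, of 16, 15 and 14 reads, lay 32.9, 29.7 and 33.0 kb from the 5′ end of a 33.2 kb span, at 22274218 to 22274287, 22277374 to 22277418 and 22274045 to 22274114. The relatives had too few peaks in eCLIP replicate 2 (0 to 12) and in the inputs (0 to 16) for a comparison of position.

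**Figure D5:**
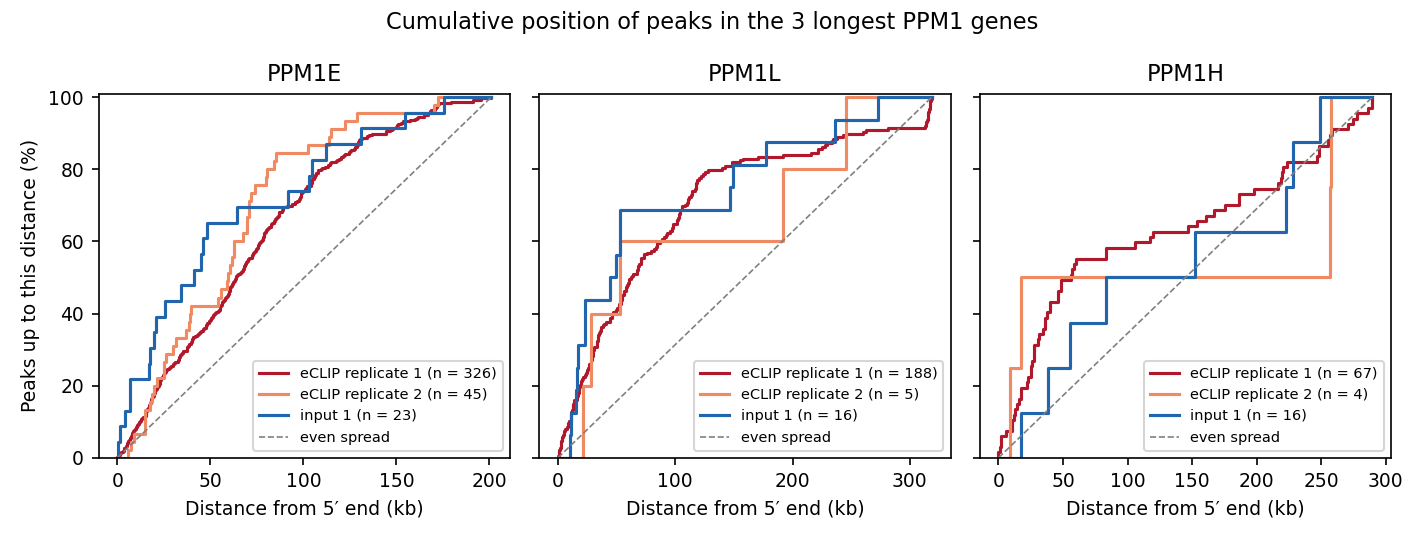
Percent of a gene's peaks found up to each distance from the 5′ end of its span (kb) in the 3 genes with the longest spans, for eCLIP replicate 1, eCLIP replicate 2 and input 1; the dashed line is an even spread. In PPM1E all 3 libraries run above the even spread over most of the span, with 73.9%, 84.4% and 73.9% of peaks in the first 50% of the span.

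The eCLIP libraries met at few PPM1E positions. Of the 45 PPM1E peaks of eCLIP replicate 2, 14 (31.1%, 19.5 to 45.7) shared at least 1 base with a peak of eCLIP replicate 1, where 33.1% did over all genes. Input 1 met the same list as often in this gene, with 7 of 23 peaks (30.4%, 15.6 to 50.9), where 12.8% of input 1 peaks did over all genes. That list is dense in PPM1E, a gene picked for its eCLIP share, so the contrast with all genes is no separate finding. Counted the other way, 4.29% (2.58 to 7.08) of the 326 peaks of eCLIP replicate 1 were found in eCLIP replicate 2 and 2.15% (1.04 to 4.37) in input 1. None of the 45 peaks of eCLIP replicate 2 overlapped an input peak. Over all genes only 3.55% overlapped input 1 and 5.21% input 2, and input 2 had no PPM1E peak to overlap. In the other PPM1 genes 0 of 31 did for either input. The median gap between peaks of eCLIP replicate 1 was 346 bases here. Overlapping peaks included, 24 of the 45 eCLIP replicate 2 peaks and 12 of the 23 input 1 peaks lay within 100 bases of one.

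The 14 shared positions were eCLIP-only, since none overlapped an input peak, and they were small. Over all genes, 12067 of 14167 such peaks of eCLIP replicate 1 were eCLIP-only too. PPM1E had no peak in input 2, so no overlap was possible there. The 14 positions held 4 to 9 reads (median 6) and 3 to 6 reads (median 4) in replicates 1 and 2. Their caller-given inner positions lay a median of 7 bases apart and at most 15. The 8 with most reads over both libraries were the following, in coordinates of eCLIP replicate 1. The peaks at 56841035 to 56841065, 56892764 to 56892832 and 56894343 to 56894383 each had 9 and 3 reads in replicates 1 and 2. The peak at 56855308 to 56855348 had 8 and 3, and that at 56914393 to 56914470 had 6 and 5. The peaks at 56853355 to 56853386 and 56895291 to 56895325 had 6 and 4 each, and that at 56864017 to 56864039 had 5 and 5. A further peak, at 56919456 to 56919491 with 4 and 6 reads, tied with these last 3. The first 8 positions lay between 7.13 and 80.5 kb from the 5′ end of the span. Under a p-value limit of 0.001 for the peaks, 0 of the 14 were left.

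The overlap of the taller PPM1E peaks was not shown to differ from that of all genes. Of the 9 PPM1E peaks with 6 or more reads in eCLIP replicate 2, 1 (11.1%, 1.99 to 43.5) overlapped a peak of eCLIP replicate 1, against 42.7% over all genes at that size. Of those with 4 to 5 reads, 7 of 16 did. The tallest of eCLIP replicate 2, with 13 reads at 56851493 to 56851552, lay 12 bases from the nearest eCLIP replicate 1 peak. The 2 peaks of 10 reads, at 56956216 to 56956259 and 56848488 to 56848566, lay 98 and 41 bases away. The 6 tallest peaks of eCLIP replicate 1 lay between 218 and 1575 bases from the nearest peak of eCLIP replicate 2. Of the 126 PPM1E peaks with 6 or more reads in eCLIP replicate 1, 8 (6.35%, 3.25 to 12.0) were found in eCLIP replicate 2, against 7.24% over all genes.

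In the other 7 genes, 7 peaks were shared by the eCLIP libraries and by no input: 2 each in PPM1G, PPM1H and PPM1L, 1 in PPM1D and 0 in PPM1A, PPM1B and PPM1F. That is 1.48% (0.719 to 3.02) of their 473 peaks in eCLIP replicate 1, against 4.29% (2.58 to 7.08) in PPM1E and 2.52% of all peaks. The intervals of PPM1E and its relatives overlapped. Since PPM1E was picked for its high eCLIP share, it had more eCLIP replicate 2 peaks to meet, and its higher percentage is no separate finding. The PPM1H pair had the most reads: 63310594 to 63310710 with 13 and 3 in eCLIP replicates 1 and 2, and 63070623 to 63070646 with 3 and 13. In PPM1G they were 27617321 to 27617341 with 4 and 9 reads and 27627782 to 27627819 with 7 and 3. In PPM1L they were 160665438 to 160665473 with 5 and 4 and 160719265 to 160719284 with 3 and 3, and in PPM1D 58709038 to 58709072 with 4 and 4.

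No position was found in all 4 libraries in any of the 8 genes. When peaks of the 4 libraries were merged into regions, PPM1E had 372 regions, of which 352 came from a single library, 14 from the eCLIP pair and 6 from eCLIP replicate 1 with input 1. The 1 region of the family seen in 3 libraries was the site that PPM1H shares with ENSG00000200296.1, in eCLIP replicate 1 and both inputs.

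The genes most like PPM1E over the 4 log2 shares, by Euclidean distance among the genes tested, were ENSG00000203867.7 at 0.971 and ENSG00000108306.7 at 1.15. The first held 334 and 23 peaks in eCLIP, against 30 and 0 in input, and the second 183 and 26 against 16 and 0. Like PPM1E, both had no peak in input 2, but that library was among the 4 that chose them. Only 5891 of 17764 genes had a peak in input 2. Likeness here is over 4 libraries and carries no test.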

How the data were processed

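Per the submitters' processing notes, the tools were cutadapt, STAR and SAMtools and the build hg19; versions, peak caller and settings were not given in the sources used here. For each library the authors deposited 1 peak list, with a p-value between 0 and 0.05 and a score for each peak. The deposited score falls as that p-value rises and was not used. The other deposited columns used are positions. The whole number closing each peak's name was read as its reads, which the files do not state. The deposited peak lists hold no library totals, so the depth is unknown.

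Peaks per 10000 peaks of the library were compared on log2(share + 0.5) with limma 3.58.1 in R 4.3.3 (lmFit, eBayes with trend, two-sided), over all 4 libraries and 8914 genes with at least 10 peaks, with a threshold of 0.05 after Benjamini-Hochberg adjustment. Overlap needed 1 base on the same strand. All 8 members are named, with the 3 reproducible sites of most reads for each (8 for PPM1E) and the 2 genes nearest to PPM1E. Gene names come from the list of members; in the table of gene names, which carries no Ensembl identifiers and follows another build, 8 of 8 symbols lay on the same chromosome. Lists of other phosphatases and of substrates could not be matched to identifiers and were not analysed here. Members and lists were chosen with earlier results of these data known. Other settings were pseudocounts of 0.1 and 2, minimums of 30 peaks and of 1, a replicate block, p-values of at most 0.001, reads, merged peaks, peaks of several genes left out, each library left out, and overlap of 50% of the shorter peak.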

Additional observations from a re-analysis of the deposited data

How the results depend on the processing

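The direction of the PPM1E difference of 2.65 was fixed by the choice of the gene, so its size alone is given. It was 3.82 with a pseudocount of 0.1 and 1.66 with one of 2, and 0.82 and 4.49 between the libraries numbered 1 and 2. Leaving out 1 library gave 1.13 to 4.18 for PPM1E, -0.69 to 0.75 for PPM1A, -0.10 to 1.27 for PPM1B, -0.18 to 0.64 for PPM1D, -0.48 to 0.49 for PPM1F, 0.53 to 1.66 for PPM1G, -0.87 to -0.46 for PPM1H and -0.64 to 0.75 for PPM1L. Of the 7 genes other than PPM1E, 0 were called by limma in any of these fits, with a lowest adjusted p of 0.254. PPM1A turned to -0.10 by reads in peaks and to -0.012 with touching peaks merged. PPM1L turned to -0.12 and -0.10 under the same settings, to -1.85 with p-values of at most 0.001 and to -0.43 between the libraries numbered 2. PPM1A at that p-value limit and PPM1F with at least 30 peaks had too few peaks to be tested.

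The replicate block, with the number in the labels as a term, gave 3 genes called higher and 1 lower, against 0 and 0 without it. The log2 differences were the same with and without it, 2.65 for PPM1E. Only the number links same-numbered libraries. Their deviations from the group means correlated at 0.397 across genes. In both groups the library numbered 2 was the smaller. Genes with a peak numbered 15839 and 7728 in eCLIP replicates 1 and 2, and 11275 and 5891 in inputs 1 and 2. The correlation therefore cannot tell pairing apart from library size. Without 1 library the calls ranged from 0 to 695 higher and from 0 to 5 lower; the 695 came without eCLIP replicate 2, which sets a lone eCLIP library against 2 inputs and assumes that it varies like them.

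With p-values of at most 0.001, the share of eCLIP replicate 2 peaks of PPM1E found in eCLIP replicate 1 was 0%, and 0 eCLIP-only shared peaks were left in PPM1E, PPM1D, PPM1G, PPM1H and PPM1L. With over 3 reads in a peak, 8 were left in PPM1E, 1 in PPM1G, 0 in PPM1H and 1 in PPM1L. The first 10% of the PPM1E span held 33.3% of the eCLIP replicate 1 peaks and 0% of the 3 input 1 peaks at a p-value of at most 0.001. Many peaks here rest on the minimum of 3 reads, which limits what can be compared. The cause of these changes was not tested.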
